A study of Mus musculus with 1307 samples.

Results

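The T-box transcription factors Tbx2, Tbx3, Tbx5, Tbx18 and Tbx20 were followed across the cell classes of the adult mouse heart. They were chosen by gene symbol, and are 5 of the 46517 genes in a count table of 1307 single cells. All 5 had counts: 60981 reads in 658 cells for Tbx20, 13315 in 308 for Tbx3, 12139 in 238 for Tbx2, 7306 in 181 for Tbx18 and 3357 in 97 for Tbx5.

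The study is an inventory of murine smooth muscle cells, here from heart tissue that was dissociated enzymatically, sorted by flow cytometry into single wells and sequenced with Smart-Seq2, a full-length chemistry without molecular identifiers. The mice were 8 to 30 weeks old. Of the cells, 949 came from 3 ACTA2GFP:CSPG4dsRED mice, called double-reporter mice here, which carry a green reporter named for the smooth muscle actin gene and a red reporter named for Cspg4, a proteoglycan of pericytes (mouse 1, 368 cells; mouse 2, 245; mouse 3, 336). A further 347 cells came from C57BL/6 mouse 1, and 11 cells from 4 other mice (C57BL/6, CSPG4dsRED and ACTA2GFP). The sort gates are not stated in the sources used here. Each large mouse filled its own plate, so mouse and plate cannot be told apart. Double-reporter mouse 3 was labelled female, while the series text speaks of males, and its summed cells held 878 counts of Xist per 1000000 counts (CPM), with the Y-linked Ddx3y at 0.0923, against 113 to 133 in the other large mice.

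T-box factors bind DNA through a shared domain. Tbx2 and Tbx3 mainly repress genes, and in the embryo they keep the atrioventricular canal and the conduction system from becoming working muscle. Tbx5 and Tbx20 act with Gata and Nkx2-5 factors in heart formation, and Tbx20 is needed in the endocardial cushions that become valves. Tbx18 marks the epicardium, the head of the sinus node and, in adult organs, mural cells, the smooth muscle cells and pericytes that wrap vessels.

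The genes lie apart or in pairs with relatives (GRCm38): Tbx2 on chromosome 11 (85832551 to 85841948, plus strand), 44.474 kb from Tbx4; Tbx3 and Tbx5 on chromosome 5 (119670669 to 119684724 and 119832668 to 119885219, plus strand), 147.94 kb apart. Tbx20 (24718138 to 24774303) and Tbx18 (87702800 to 87731260) both lie on the minus strand of chromosome 9. Tbx3 shares 115 exonic bases with the antisense gene Tbx3os1, and Tbx18 shares 970 with D030062O11Rik, which had 468 counts in all cells. Whether counting used strand is not given in the sources used here, so reads in these stretches cannot be assigned to one partner.

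The upstream windows of Tbx20 and Tbx18 are shown because sequence was available for these members only. Both genes were read in fibroblasts and in mural cells. RefSeq sequence (GRCm38.p6) matched Tbx20 and Tbx18; Tbx2, Tbx3 and Tbx5 are named only. The 250 bases before the start are at chr9:24774304-24774553 for Tbx20 and chr9:87731261-87731510 for Tbx18, both minus strand, printed 5′ to 3′ with motif matches in capitals.
Tbx20: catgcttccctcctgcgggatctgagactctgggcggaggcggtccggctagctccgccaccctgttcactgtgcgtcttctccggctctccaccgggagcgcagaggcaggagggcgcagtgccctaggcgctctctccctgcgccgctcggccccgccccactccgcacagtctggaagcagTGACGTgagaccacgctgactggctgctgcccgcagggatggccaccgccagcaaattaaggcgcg
Tbx18: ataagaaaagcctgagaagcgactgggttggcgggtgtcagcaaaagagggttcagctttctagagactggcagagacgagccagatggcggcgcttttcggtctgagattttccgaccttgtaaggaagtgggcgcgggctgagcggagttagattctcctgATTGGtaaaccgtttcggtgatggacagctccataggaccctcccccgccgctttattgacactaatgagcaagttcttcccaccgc
The Tbx20 window was 68.8% G or C with 22 CG dinucleotides, and the Tbx18 window 54% with 15, against a median of 6 over 32851 promoter windows of equal length. The capitals mark TGACGT, a cyclic AMP response core, at base -66 of Tbx20 (in 6.47% of all windows on either strand), and ATTGG, the reverse of the CCAAT box, at base -87 of Tbx18 (in 33.9%). The T-box site GGTGTGA, the GATA site AGATAA and the NKX site CAAGTG, searched on both strands, had no match in either window and occurred in 3.33%, 9.99% and 11.6% of all windows. The Tbx18 window lies inside D030062O11Rik.

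Cells were placed in classes by the CPM of marker genes, none of them a T-box gene. Cells with Myh11, the smooth muscle myosin, were split by Rgs5, a G-protein regulator of mural cells, at 200 CPM (112 Rgs5-high and 100 Rgs5-low cells). Cells with the matrix protein Vtn were split by Kcnj8, a potassium channel gene and pericyte marker, and by Acta2. Those with Kcnj8 and no Myh11 formed the Kcnj8 class, whatever their Acta2 level (76). The remaining ones with Acta2 formed the Vtn Acta2 class (88, with or without Myh11, and not counted among the Myh11 cells). Cells with at least 1000 CPM of Dcn, a fibroblast proteoglycan, and no mural marker were divided into valve-type (97), Cilp or Thbs4 (71), Pdgfra with Tcf21 (142) and other fibroblasts (116). Cells with Pecam1, the endothelial adhesion molecule, were split by Npr3, an endocardial marker (236 without, 54 with). C1qa marked 37 macrophages. Of the 212 Myh11 cells 17 lay within 2 times of the Rgs5 threshold, and 39 fibroblasts were 1 valve-type marker short. A further 91 cells held markers of more than 1 class, and 19 met no gate.

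Per cell, 50476 to 811982 reads (median 274702) were counted. The valve-type class is named from its gate genes. The median cell of the C1qa class held 4001 CPM of Csf1r, a marker that was not used to gate it. Of 376 mural cells, 141 also held markers of another class, and 45 of 212 Myh11 cells had at least 1000 CPM of Dcn. Summed over the fibroblast markers Dcn, Col1a1, Col1a2, Pdgfra, Dpt and Lum, mouse sums were 1150 to 1858 CPM in Rgs5-high cells, 3329 to 5097 in Rgs5-low cells and 1805 to 4651 in Kcnj8 cells, against 12997 to 20427 in the fibroblast classes. Endothelial classes came almost wholly from C57BL/6 mouse 1 (228 of 236 and 52 of 54 cells), and mural and fibroblast classes from the double-reporter mice, so strain and class cannot be told apart between these sets.

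Levels are CPM of the reads summed over a mouse's cells of a class, given in the order of double-reporter mice 1, 2 and 3. A cell was counted as positive from 10 CPM, since C1qa cells, which should lack Tbx20, had at least 1 Tbx20 read in 24.3% of cells but 10 CPM in 2 of 37. Median depth was 161344 reads in C1qa cells, against 242094 to 323761 in the other named classes. Intervals on shares are exact 95% binomial ones for counting error only. Where no cell was positive, the share allowed is given as 3 cells of the total, which is a little below the exact upper bound. In summed cells, fewer positive cells and less RNA per cell cannot be told apart from the CPM alone.

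**Figure D1:**
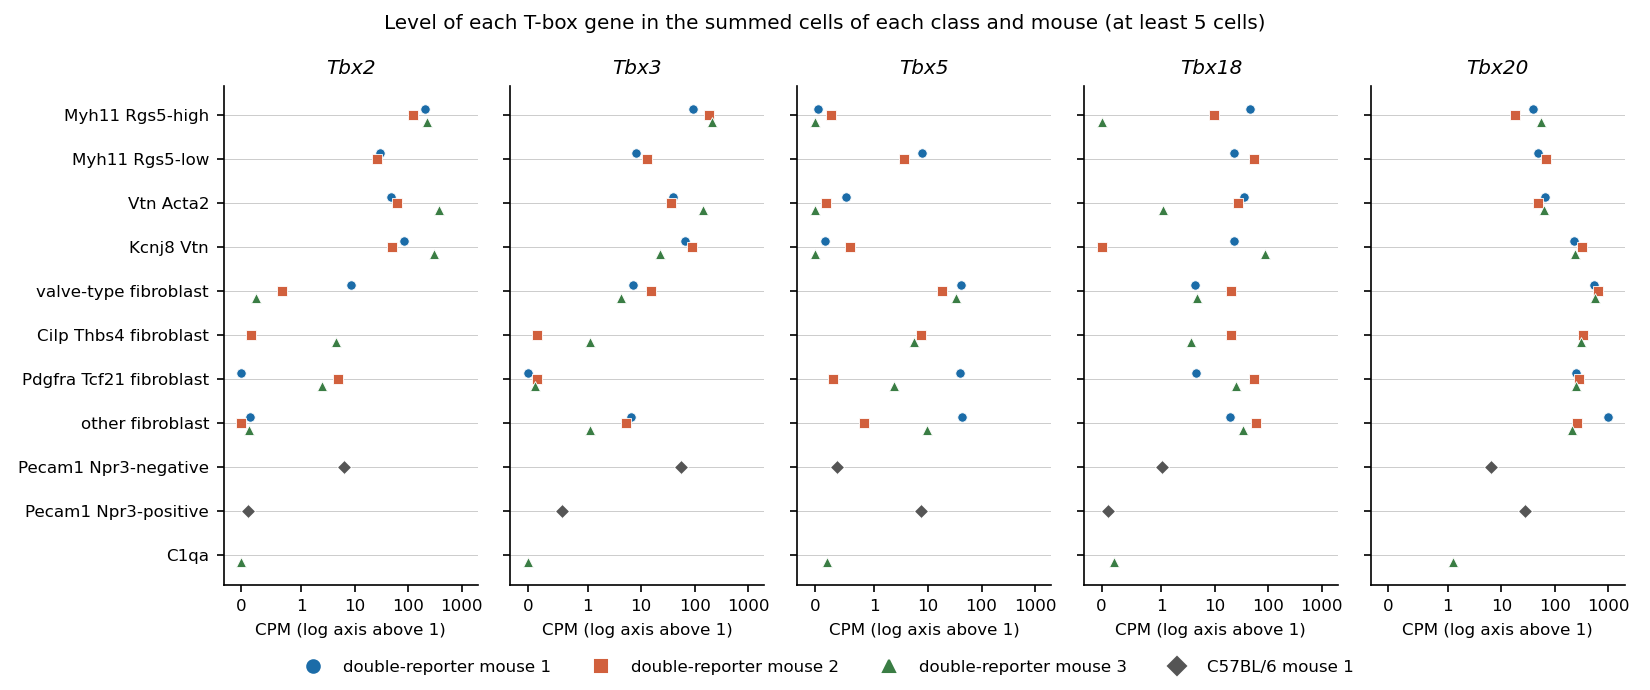
CPM of the 5 T-box genes (horizontal axes, logarithmic above 1 CPM) in the summed cells of each class (rows), with a symbol for each mouse that had at least 5 cells. Tbx2 and Tbx3 symbols lie highest in Myh11 Rgs5-high cells and the Vtn classes, and Tbx20 symbols in the fibroblast classes and Kcnj8 cells.

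Tbx2, a repressor, was read mainly in mural cells. In Rgs5-high Myh11 cells it was at 208, 122 and 230 CPM (mean 187 ± 57.02 SD, n = 3 mice), in Vtn Acta2 cells at 47.4, 62.0 and 373, and in Kcnj8 cells at 84.5, 51.0 and 300. In Rgs5-low cells of mice 1 and 2 it was at 30.4 and 26.0. The mouse values of the first 3 classes overlapped, and all lay above the Rgs5-low values. Mouse 3 was the highest of the mice in each of them, with 12, 9 and 8 cells.

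All fibroblasts of a mouse together held 5.36, 1.39 and 2.07 CPM of Tbx2. Against these, all Myh11 cells were at 107, 78.5 and 163 CPM, with no overlap. Tbx2 was higher in Myh11 cells by 5.47 on the log2 scale (SE 0.61, adjusted p = 0.0230, edgeR's quasi-likelihood test with mouse as block and Benjamini-Hochberg adjustment over 16199 genes), in 3 of 3 mice. In that comparison 2.6% of all genes were called (1.46% higher, 1.14% lower), and among the 5 members Tbx2 and Tbx20 were. Without double-reporter mouse 2 neither was called (adjusted p = 0.103 for Tbx2 and 0.0902 for Tbx20, edgeR), and 27 genes in all were called in place of 421.

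Kcnj8 cells had Tbx2 5.45 log2 units above fibroblasts (SE 1.04), which did not pass (adjusted p = 0.0582, edgeR, 15198 genes). None of the 5 members was called there, with 1.51% of all genes called (0.711% higher, 0.796% lower). Of the 86 Tbx2 reads of Kcnj8 cells in mouse 2, all came from 1 of 12 cells. Between Myh11 and Kcnj8 cells the Tbx2 difference was 0.06 (SE 0.56), and its sign depended on the setting.

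Positive cells were also most frequent in the Rgs5-high class. Tbx2 reached 10 CPM in 62 of 112 Rgs5-high cells (55.4%, interval 45.7 to 64.8), 19 of 100 Rgs5-low cells, 23 of 88 Vtn Acta2 cells (26.1%) and 23 of 76 Kcnj8 cells (30.3%). It did so in 9 of 426 fibroblasts (2.11%) and 8 of 236 Pecam1 cells without Npr3 (3.39%). No C1qa cell did, which allows a share of up to 8.11% of 37 cells. Among positive Rgs5-high cells the median was 240 CPM and the highest cell held 2036.

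Tbx3, its close relative, was also highest in Rgs5-high cells, at 93.5, 183 and 212 CPM (163 ± 61.6, n = 3 mice). Vtn Acta2 cells held 39.7, 36.0 and 141, Kcnj8 cells 66.6, 90.7 and 22.4, and Rgs5-low cells 8.09 and 12.8. The Vtn Acta2 values overlapped those of Rgs5-high and of Kcnj8 cells, while every Rgs5-high value lay above every Kcnj8 value. The Rgs5-low values lay below those of all 3 classes. Per kilobase of exon, mean Tbx2 in Rgs5-high cells was 51.4 ± 15.7 CPM and Tbx3 24.6 ± 9.30.

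Fibroblasts of a mouse held 5.86, 6.47 and 0.859 CPM of Tbx3 and Myh11 cells 44.9, 106 and 150. The groups did not overlap, and the difference of 4.62 log2 units (SE 1.09) did not pass (adjusted p = 0.116, edgeR). The valve-type fibroblasts, at 7.12, 15.3 and 4.17 CPM, held most of it: 10 of the 15 Tbx3-positive fibroblasts were of this class. The Pdgfra Tcf21 fibroblasts had 4 Tbx3 reads in 142 cells, so the fitted difference to them depends on the prior count. Valve-type against Pdgfra Tcf21 fibroblasts differed by 6.26 (SE 1.79, adjusted p = 0.415, edgeR, 0.25% of 13206 genes called, 0.106% higher and 0.144% lower, no member among them).

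Within Myh11 cells the mouse values of both repressors did not overlap between the Rgs5 classes. Those of Tbx5 and Tbx20 did not overlap either, and those of Tbx18 did. The share of all genes without overlap is not given here for any comparison. Tbx3 was 3.66 log2 units higher in Rgs5-high than in Rgs5-low cells (SE 0.37) and Tbx2 2.49 (SE 0.34), in both mice that had at least 5 cells of each. With these 2 mice neither passed (adjusted p = 0.184 and 0.227, edgeR), and 0.00706% of 14158 genes did, which is 1 gene. Finer steps of Rgs5 in the double-reporter mice gave Tbx2-positive shares of 9.76% of 41 cells under 30 CPM of Rgs5, 26.3% of 57 cells from 30 to 200, 25.8% of 31 cells from 200 to 2000, and 66.7% of 81 cells from 2000 on. For Tbx3 the same steps gave 4.88%, 10.53%, 16.1% and 67.9%.

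The high shares thus sat in cells with at least 2000 CPM of Rgs5, where each mouse had 63.6% to 81.8% positive cells for Tbx2 or Tbx3. Fibroblast markers moved in the opposite direction. Of the 44 double-reporter Myh11 cells with at least 1000 CPM of Dcn, none was positive for Tbx2 or Tbx3, which allows a share of up to 6.82%, against 81 and 68 of the 166 cells below that level. Median depth was 337074 reads in the 44 cells and 241580 in the 166. Their part in the Rgs5 difference was not tested. Tbx20 was positive in 31.8% of the 44 cells and 21.1% of the 166, and Tbx18 in 13.6% and 12.05%.

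**Figure D2:**
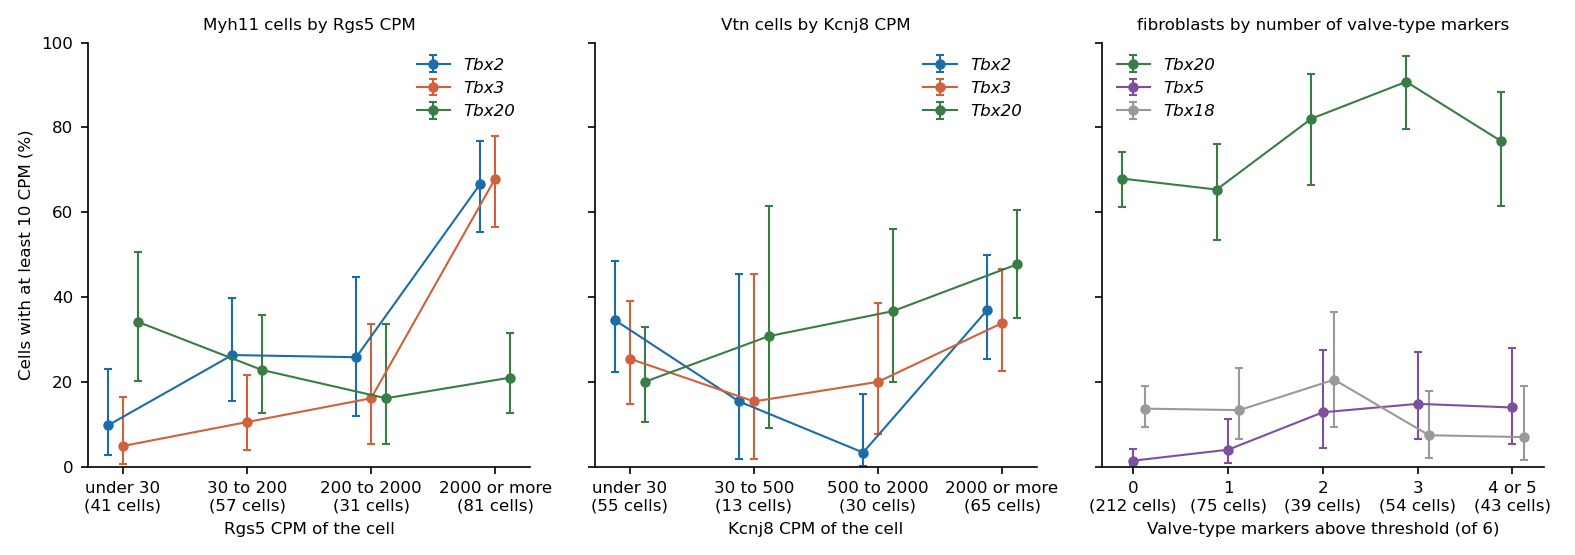
Share of double-reporter cells with at least 10 CPM (vertical axes, percent, bars are exact 95% intervals) by Rgs5 CPM in Myh11 cells, by Kcnj8 CPM in Vtn cells, and by the number of valve-type markers in fibroblasts. Tbx2 and Tbx3 stand at 66.7% and 67.9% in the highest Rgs5 step, and Tbx20 at 20% in the lowest and 47.7% in the highest Kcnj8 step, over pooled mice.

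Cells positive for both repressors were seen in each mural class. In Rgs5-high cells 40 cells were positive for both, of 62 with Tbx2 and 60 with Tbx3, where the product of the shares gives 33.2. In Vtn Acta2 cells 12 cells were, where the product gives 5.75, and in Kcnj8 cells 8, where it gives 6.66. In Rgs5-low cells 7 were, where the product gives 1.52. The antisense RNA Tbx3os1, whose exonic reads shared with Tbx3 cannot be assigned, was positive in 60 Rgs5-high cells. Of these, 47 were among the 60 Tbx3-positive ones, where the product gives 32.1. These counts pool mice, and cells of 1 mouse share its plate and depth.

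**Figure D3:**
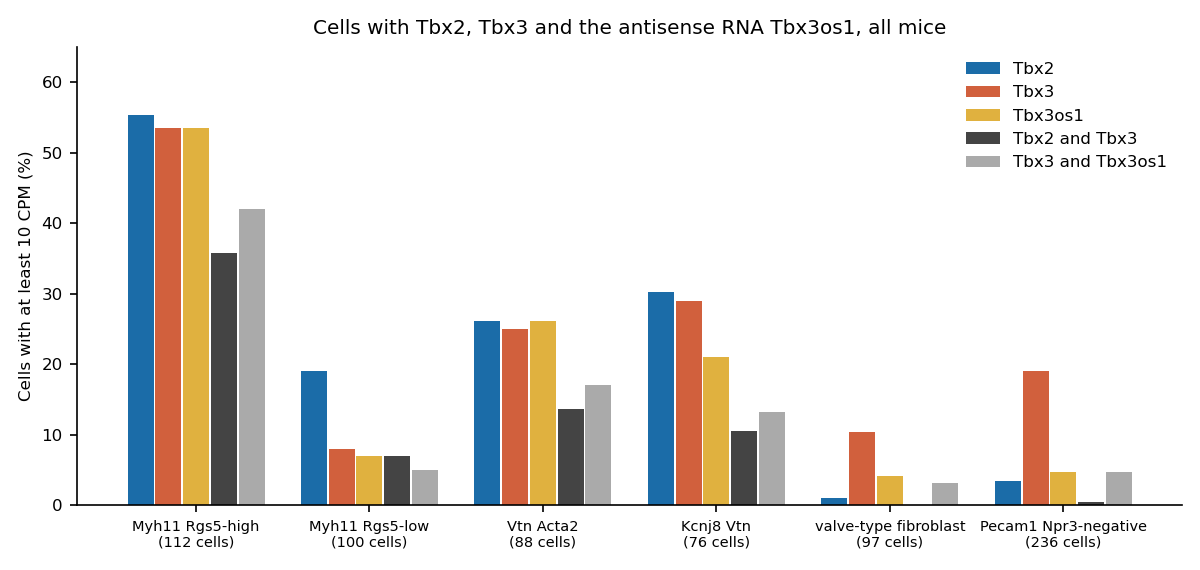
Percent of cells with at least 10 CPM of Tbx2, Tbx3 and Tbx3os1, and of both genes of a pair, by class (bars, all mice pooled, no error bars). In Rgs5-high cells all 3 genes stand between 53.6% and 55.4%, while Pecam1 cells without Npr3 show Tbx3 with little Tbx2 or Tbx3os1.

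Tbx3 without Tbx2 marked a set of endothelial cells of C57BL/6 mouse 1. Its sum over Pecam1 cells without Npr3 was 55.0 CPM, with 44 of 228 cells positive (19.3%, interval 14.4 to 25.0), against 0.565 CPM and 1 of 52 Npr3 cells. Tbx2 was at 6.39 and 0.113 CPM. With 1 mouse there is no test. Of the 44 cells 1 was positive for Tbx2 and 11 for Tbx3os1, and of the other 184 cells 7 and none.

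These 44 cells kept endothelial levels of Kdr, a VEGF receptor (1317 CPM summed, against 1014 in the other 184), and of the junction gene Cdh5 (575 against 437). Pecam1 was at 2316 against 2255 CPM in sums. The endothelial gene Fabp4 was at 2283 against 2052, with cell medians of 2227 and 2277. Emcn, also endothelial, was lower in the 44 cells, at 781 against 916. Von Willebrand factor, a gene of larger vessels and endocardium, was at 75.4 against 268 CPM in sums, but cell medians were 4.72 and 4.04, and 12 of 44 and 52 of 184 cells were positive. Rgs5 was at 692 against 664 CPM in sums, with cell medians of 159 and 22.5. The mural genes were low on both sides: Vtn at 1.71 and 2.39 CPM, Kcnj8 at 15.2 and 45.6, Myh11 at 4.83 and 2.80, and Acta2 at 98.8 and 32.5. The cells were split by Tbx3 itself, so these values are a description. In the 48 cells of this mouse that held markers of more than 1 class, Tbx3 was positive in 20 and Tbx2 in 16.

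Tbx20, an activator and repressor of valve and muscle development, had the highest CPM of the members. Valve-type fibroblasts held 529, 639 and 569 CPM (579 ± 55.8, n = 3 mice), Pdgfra Tcf21 fibroblasts 252, 281 and 250 (261 ± 17.2), and Cilp Thbs4 fibroblasts of mice 2 and 3 held 332 and 303. Other fibroblasts ranged from 209 to 976, with mouse 1, at 20 cells, far above mice 2 and 3. Per kilobase, Tbx20 in valve-type fibroblasts (48.3 ± 4.65 CPM) was within the spread of Tbx2 in Rgs5-high cells, since Tbx20 has 11.997 kb of annotated exon and Tbx2 3.63 kb.

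In mural cells Tbx20 was at 39.5, 17.8 and 54.3 CPM in Rgs5-high cells, 48.0 and 67.0 in Rgs5-low cells and 64.3, 49.0 and 62.2 in Vtn Acta2 cells. Myh11 cells as a whole were at 44.4, 40.1 and 40.3 CPM and fibroblasts at 609, 412 and 271, with no overlap. Tbx20 was lower in Myh11 cells by -3.31 log2 units (SE 0.31, adjusted p = 0.0155, edgeR), in 3 of 3 mice. Positive cells numbered 309 of 426 fibroblasts (72.5%, interval 68.03 to 76.7) and 50 of 212 Myh11 cells (23.6%).

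Kcnj8 cells held Tbx20 at levels that overlapped those of fibroblasts over mice, but lay below the fibroblasts of the same mouse in 3 of 3 mice. Their values were 224, 324 and 234 CPM (260 ± 54.8), overlapping the Pdgfra Tcf21 fibroblasts, and lay at -0.63 log2 units from all fibroblasts (SE 0.39, adjusted p = 0.531, edgeR). Tbx20 was positive in 36 of 76 Kcnj8 cells. All 3 mice had lower values in Myh11 cells than in Kcnj8 cells, with no overlap, a difference of -2.60 (SE 0.51) that did not pass (adjusted p = 0.0900, edgeR, 12650 genes). No member was called there, with 0.972% of genes called (0.625% higher, 0.348% lower). Against Kcnj8 cells the Vtn Acta2 cells were at -2.11 (SE 0.55, adjusted p = 0.588, edgeR, 0.0274% of 10934 genes called, 0.00915% higher and 0.0183% lower, no member).

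The Tbx20 of Kcnj8 cells was seen at low and high Dcn. It was positive in 28 of 55 Kcnj8 cells under 250 CPM of Dcn (249 CPM summed) and in 8 of 21 with more (184 CPM). Along the Kcnj8 level of Vtn cells the positive share over pooled mice was 20% of 55 cells, 30.8% of 13, 36.7% of 30 and 47.7% of 65, and the summed CPM 48.7, 107, 249 and 173. In mouse 1, which held most of these cells, the shares were 21.9%, 22.2%, 47.4% and 40.8%, so the highest step was not the highest share. Tbx2 was positive in 34.5%, 15.4%, 3.33% and 36.9% of the pooled cells.

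Fibroblasts were also ordered by the number of valve-type markers, 6 genes (Wif1, Chad, Prg4, Fmod, Cytl1, Coch) of which a valve-type cell needed 3. Tbx20-positive shares were 67.9% of 212 double-reporter fibroblasts with none of them, 65.3% of 75 with 1, 82.1% of 39 with 2, 90.7% of 54 with 3 and 76.7% of 43 with 4 or 5, and summed CPM was 241, 388, 585, 615 and 508. These shares pool mice, and 178 of the 212 cells with none came from mouse 3. Within mice the order differed: with none and with 4 or 5 markers, 55.6% and 93.75% were positive in mouse 1, 68% and 68.75% in mouse 2, and 68.5% and 63.6% in mouse 3. Valve-type cells were 1.18 log2 units above Pdgfra Tcf21 cells (SE 0.19, adjusted p = 0.141, edgeR), higher in 3 of 3 mice with no overlap. Mouse 1 had 7 Pdgfra Tcf21 cells.

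The Pecam1 class with Npr3 kept its Dcn-bearing cells (34 of 52 with at least 1000 CPM, fibroblast markers summing to 2458 CPM), while such cells were taken out of the class without Npr3 (45.6 CPM). In these classes Tbx20 was at 6.49 CPM in Pecam1 cells without Npr3 (5 of 228 positive) and 27.03 in those with Npr3 (6 of 52, 11.5%, interval 4.35 to 23.4), in C57BL/6 mouse 1 alone. Of 30 double-reporter Pecam1 cells without Npr3, 24 held at least 1000 CPM of Dcn and a median of 0 CPM of Cdh5, and 12 of these were Tbx20-positive. They were set with the mixed cells, as were 9 such cells of C57BL/6 mouse 1, after their markers and Tbx20 values had been seen. The 6 others held 2.42 CPM of Tbx20 and none was positive.

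Tbx5, the factor mutated in Holt-Oram syndrome of heart and hand, was the rarest member. In the double-reporter mice its class means were highest in fibroblasts, with Cilp Thbs4 values overlapping those of Rgs5-low cells. Tbx5 was at 42.2, 18.6 and 33.6 CPM in valve-type fibroblasts (31.5 ± 11.9, n = 3 mice), where 14 of 97 cells were positive (14.4%, interval 8.12 to 23.0). Cilp Thbs4 cells held 7.32 and 5.56 CPM. Pdgfra Tcf21 cells were at 40.4, 0.301 and 2.33, the first value from 1 of 7 cells, and other fibroblasts at 42.5, 0.827 and 9.62. By number of valve-type markers, pooled positive shares were 1.42%, 4%, 12.8%, 14.8% and 13.95%. Single mice did not share 1 order: mouse 1 had 11.1%, 8.33%, 10%, 11.1% and 31.25%, and mouse 2 had none of 16 cells with 4 or 5 markers.

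Myh11 cells held 4.34, 1.76 and 0 CPM of Tbx5 and fibroblasts 39.7, 8.34 and 7.09, without overlap (-3.43 log2 units, SE 1.18, adjusted p = 0.234, edgeR). No Rgs5-high cell was positive, which allows up to 2.68% of 112 cells, and no Kcnj8 cell, which allows up to 3.95% of 76. Tbx5 was too low to be tested between mural classes other than the split by Rgs5, where it was at 0.0563 and 0.268 CPM in Rgs5-high and 7.58 and 3.56 in Rgs5-low cells (adjusted p = 0.486, edgeR). In C57BL/6 mouse 1 it was positive in 4 of 52 Npr3 cells (7.29 CPM) and 2 of 228 other Pecam1 cells (0.374 CPM). Of the 26 Tbx5-positive fibroblasts 23 were also Tbx20-positive, where the product of shares gives 18.9.

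Tbx18, the epicardial and mural gene, had similar shares in smooth muscle cells and fibroblasts. It was positive in 26 of 212 Myh11 cells (12.3%, interval 8.17 to 17.5) and 54 of 426 fibroblasts (12.7%, interval 9.67 to 16.2), but in 1 of 236 Pecam1 cells without Npr3 and in no C1qa cell. Rgs5-low cells held 23.3 and 54.8 CPM, Rgs5-high cells 44.9, 9.66 and 0, Vtn Acta2 cells 34.6, 27.8 and 1.06, and Kcnj8 cells 23.4, 0 and 86.0, the last from 1 cell. In the 12 Rgs5-high cells of mouse 3, 3 reads would be 1.83 CPM.

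Pdgfra Tcf21 fibroblasts held 4.41, 54.6 and 25.2 CPM of Tbx18, other fibroblasts 19.6, 59.6 and 33.4, Cilp Thbs4 cells 20.4 and 3.68, and valve-type cells 4.37, 20.4 and 4.66. Every class from the highest to the valve-type fibroblasts overlapped the next in its mouse values. Myh11 cells and fibroblasts differed by -0.89 log2 units (SE 1.78, adjusted p = 0.849, edgeR), a precision that leaves several-fold differences undetectable. Of 110 Tbx18-positive cells in the series, 3 were the other fibroblasts with at least 100 CPM of the mesothelial genes Msln, Upk3b or Lrrn4. All 3 such cells were of mouse 2 and Tbx18-positive, at 415 CPM summed. They held all the Tbx18 of that mouse's other fibroblasts, whose 19 remaining cells had 0 CPM, and the 110 remaining other fibroblasts of the double-reporter mice held 23.8 CPM.

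Vtn Acta2 cells were compared with Myh11 cells as well. No member was called, and 0% of 13095 genes were by edgeR, with 788 at an unadjusted p under 0.05 and 625 called by DESeq2. Differences were -0.08 for Tbx2, -0.56 for Tbx3, 0.72 for Tbx18 and 0.52 for Tbx20, with SE of 0.52 to 1.30. The 7 comparisons share class sums, so their values for a member are not independent.

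**Figure D4:**
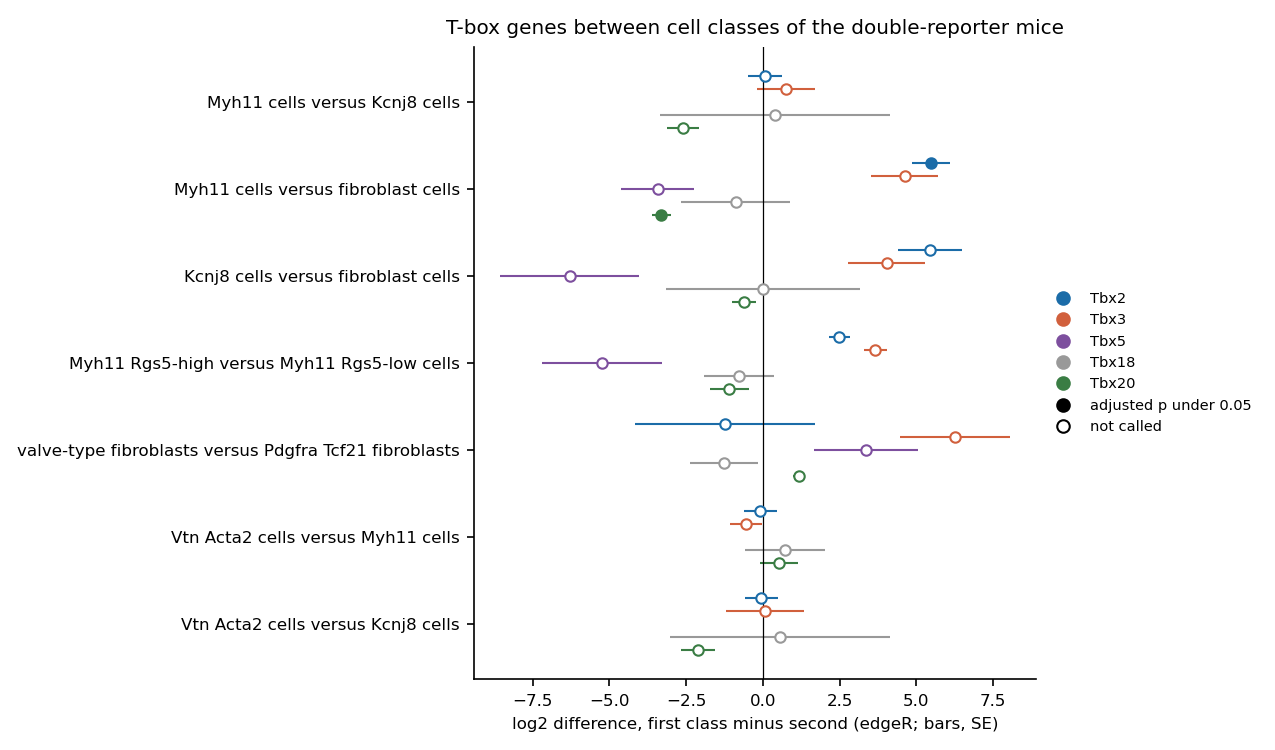
Log2 difference of each member (horizontal axis, first class minus second, bars are SE) in the 7 comparisons of the double-reporter mice, 3 mice each except 2 for the Rgs5 split. Filled points, Tbx2 at 5.47 and Tbx20 at -3.31 in Myh11 cells against fibroblasts, were called and open ones were not.

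Members per cell followed from these patterns. At least 1 of the 5 was positive in 83.0% of Rgs5-high, 59.0% of Rgs5-low, 60.2% of Vtn Acta2, 73.7% of Kcnj8, 88.7% of valve-type and 74.6% of Pdgfra Tcf21 cells, against 24.6% of Pecam1 cells without Npr3 and 8.11% of C1qa cells. In Rgs5-high cells 45 cells had 1 member and 48 more than 1, and in fibroblasts 260 had 1 and 73 more. No cell had all 5.

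Of the 12 other T-box genes listed, Mga, Tbx4, Tbx15 and Tbx6 reached 10 CPM in a class sum of at least 5 cells. Tbx15 did so at 88.3 CPM in 1 of the 8 Kcnj8 cells of mouse 3, and Tbx6 at 10.24 CPM in C1qa cells of mouse 3, from 2 of 30 cells. Tbx4, known from limb and lung, was at 15.1, 19.0 and 21.8 CPM in valve-type fibroblasts and at 0, 0.1503 and 0.0363 in Pdgfra Tcf21 cells, no more than 1 read a mouse (fitted at 8.20 log2 units, SE 1.89, adjusted p = 0.303, edgeR). All 15 Tbx4-positive valve-type cells were Tbx20-positive, where the product of shares gives 12.7. Other fibroblasts of mouse 2 held 40.9 CPM from 4 cells. Mga, a partner of Max with a T-box, was at 38.9 to 90.1 CPM with the mice of each class named above pooled, and at 2.37 (Kcnj8 cells of mouse 2) to 101 CPM (Vtn Acta2 cells of mouse 1) in the sums of single mice. Of the 17 family genes, 8 were tested between Myh11 cells and fibroblasts, 1 was higher and 1 lower, with a median of -0.27 beside -0.26 over all genes.

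Of 29 listed cardiac transcription factor partners, 25 were tested there, with 1 called each way, beside 1.46% of all genes higher and 1.14% lower, and a median of -0.17 beside -0.26. Myocd, the smooth muscle coactivator, was at 498, 438 and 770 CPM in Myh11 cells and 20.0, 9.79 and 2.91 in fibroblasts, higher by 5.97 (SE 0.85, adjusted p = 0.0410, edgeR). Sox9, a cartilage and valve factor, was lower by -4.36 (SE 0.41, adjusted p = 0.0153, edgeR), at 33.2, 11.6 and 10.4 CPM against 360, 280 and 354. Against Kcnj8 cells Myocd was 7.84 higher (SE 0.82, adjusted p = 0.0126, edgeR, on 1 or 2 Kcnj8 reads in mice 2 and 3), the only call among 21 partners tested, whose median was 1.07 beside 0.50 over all genes. Between Kcnj8 cells and fibroblasts 1 of 22 partners was higher and 1 lower: Foxs1, a pericyte forkhead factor, by 3.46 (SE 0.45), and Sox9 by -6.11 (SE 0.94).

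Of 20 genes known to respond to T-box factors, 15 were tested between Myh11 cells and fibroblasts, with 1 higher and none lower, beside 1.46% and 1.14% of all genes, and a median of -0.63 beside -0.26. That gene was Notch3, the mural Notch receptor, at 392, 574 and 753 against 39.1, 68.4 and 35.8 CPM (3.58 log2 units, SE 0.37, adjusted p = 0.0198, edgeR). Between Kcnj8 cells and fibroblasts 14 were tested, with Notch3 higher by 4.48 (SE 0.33) and the gap junction gene Gja1 lower by -6.71 (SE 1.08, adjusted p = 0.0307, edgeR, with Kcnj8 sums of 0.924, 1.78 and 0.748 CPM), and a median of -2.04 beside -0.80 over all genes. Postn, a matrix gene of valves and fibroblasts, was lower in Myh11 than in Kcnj8 cells by -1.53 (SE 0.22, adjusted p = 0.0306, edgeR), the only one of 12 tested. In the other 4 comparisons no partner or responder was called, beside 0% to 0.25% of all genes. The pacemaker channel gene Hcn4 had no count in any mural or fibroblast class of these mice, and the 4 pacemaker markers summed to at most 16.6 CPM.

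Finally, the genes most alike in level were ranked by Pearson's r of log2(CPM + 1) over 28 class sums from 4 mice, among 10831 genes, as a description. Sums of 1 mouse share its plate and classes share cells' depth. Tbx2 was most like Tbx3os1 (0.957), the pericyte gene Higd1b (0.951) and the calcium-store gene Casq2 (0.947). Tbx3 was most like Tbx3os1 (0.861), Casq2 (0.852) and Gm38287 (0.848). Tbx20 was most like the matrix genes Ccdc80 (0.956), Mgp (0.916) and Thbs2 (0.908), Tbx5 like 5033428I22Rik (0.877), Itih2 (0.836) and the tendon factor Scx (0.832), and Tbx18 like Glt8d2 (0.811), Gstm4 (0.779) and elastin (0.778). Between members r was 0.800 for Tbx2 and Tbx3 and 0.598 for Tbx5 and Tbx20.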

How the data were processed

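Counts of reads per gene and cell were used as deposited by the authors, 46517 genes in 1307 cells. The tools named, per the submitters' processing notes, are featureCounts (Subread), Bowtie2, Bowtie and bcl2fastq, with the builds mm10 and GRCm38. Their versions and the strand setting are not given in the sources used here. Symbols matched 46005 genes, and 16915 genes had no count. The members, gene lists, tests and class thresholds were chosen with earlier results of these data known.

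Each labelled sample is 1 cell and the mouse is the replicate. Cells were classed by CPM of markers: 200 for Myh11, Vtn, Rgs5 and Pecam1, 500 for Kcnj8, Acta2, Cilp and Thbs4, 1000 for Dcn, 300 for C1qa and valve-type markers, 100 for Coch, Npr3 and Pdgfra, and 50 for Tcf21. Moving Pecam1 cells with Dcn and without Npr3 to the mixed class was decided after their values were seen. No doublet caller was run. The 91 cells placed in the mixed class were set aside and entered none of the comparisons. A further cell class is not reported here.

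Counts were summed per mouse and class (at least 5 cells) and tested with edgeR 4.0.16 (TMM, filterByExpr, quasi-likelihood test, mouse as block, Benjamini-Hochberg adjusted p under 0.05 over all genes tested), with limma 3.58.1, in R 4.3.3. The block was kept because both classes come from the same animals: deviations of a mouse's 2 sums from their group means correlated at 0.114, 0.312 and 0.165 over 6221 genes. DESeq2 1.42.0 was an alternative, beside no filter, no block, each mouse left out and at least 10 cells per sum. Others were thresholds at 0.5 and 2 times and a stricter cell filter (100000 counts, 2000 genes). The last left out classed cells that also held markers of another class, such as 141 of 376 mural cells. It is called without mixed cells, although the mixed class itself was in no fit. On simulated data the edgeR step recovered 71% to 98% of 16-fold and 3% to 16% of 4-fold changes over the comparisons. The simulation gave every gene the same dispersion and no mouse effect, and changed only genes with enough expected reads. Its shares therefore do not carry over to sparse genes or to genes that vary between mice. The SE of an edgeR difference is the absolute log2 difference divided by the square root of the F statistic. It was derived from the test and not estimated apart from it. Other values were computed with Python 3.11.15 and pandas 2.3.3.

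Genes were named by rule: the members, other T-box genes with at least 10 CPM in a class sum, the 2 called members of each list with the largest change each way, and the 3 genes most alike to each member. Tcf21 was left out of the partner list as a gate marker.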

Additional observations from a re-analysis of the deposited data

Results flagged for a closer look

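Signal was also present in mice that the comparisons do not use, above the level of 3 counts. In C57BL/6 mouse 2 (4 cells), 157 Tbx3 counts (708 CPM of the summed cells) came from 1 cell that no marker placed in a class. In ACTA2GFP mouse 1 (3 cells), 829 Tbx5 counts (1948 CPM) came from 1 other fibroblast, and 78 Tbx18 counts (183 CPM) from a Vtn Acta2 cell and an other fibroblast. The same mouse had 4 Tbx20 counts (9.40 CPM) in 2 cells, where 3 counts are 7.05 CPM.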

How the results depend on the processing

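Of 325 member changes under an alternative, 263 kept direction and side of the threshold, 24 newly passed, 2 no longer passed and 36 changed sign; none of the 36 was a called change. The lost calls were Tbx2 and Tbx20 between Myh11 cells and fibroblasts without mouse 2. Some alternatives also lost a mouse. Requiring 10 cells per sum gave the fit without mouse 3 in the comparisons of Kcnj8 or Vtn Acta2 cells and the fit without mouse 1 in valve-type against Pdgfra Tcf21 fibroblasts. Leaving out classed cells with markers of another class lost mouse 3 in every comparison of Myh11, Kcnj8 or Vtn Acta2 cells. The exception was the Rgs5 split, which had mice 1 and 2 throughout. Otherwise the cause was not tested.

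Members called between Myh11 and Kcnj8 cells went from 0 to 1 (Tbx20) with DESeq2, without the filter, without the replicate block, with at least 10 cells per sum and without mixed cells, and ranged from 0 to 1 with each mouse left out (adjusted p 0.0215 to 0.415 over all alternatives, edgeR or DESeq2). Between Myh11 cells and fibroblasts 2 became 4 with DESeq2, 3 without the block and without mixed cells (both adding Tbx3), and 0 to 3 with each mouse left out. Between Kcnj8 cells and fibroblasts 0 became 3 with DESeq2, 1 (Tbx2) without the filter, without the block and at 2 times the thresholds, and 0 to 1 with each mouse left out. The Rgs5 split gave 2 with DESeq2, and valve-type against Pdgfra Tcf21 fibroblasts 3 with DESeq2 and 1 without the filter. All genes called with DESeq2 were 1296 of 13689, 2428 of 16242, 2385 of 15344, 878 of 13837 and 934 of 13643, in this order. Gains without the filter stood beside 406 of 23871, 346 of 26756 and 245 of 24622. Gains without the block stood beside 183 of 12650, 816 of 16199 and 343 of 15198. Without mixed cells 258 of 13810 and 693 of 15940 were called, and at 2 times the thresholds 350 of 15063.

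Without the replicate block, Tbx2 was at -0.31 and Tbx18 at -0.85 for Myh11 against Kcnj8, Tbx2 at 0.26 for valve-type against Pdgfra Tcf21 and 0.51 for Vtn Acta2 against Myh11, and Tbx2 at 0.19 and Tbx18 at -0.80 for Vtn Acta2 against Kcnj8. With DESeq2, Tbx2 was at -0.03 for Myh11 against Kcnj8 and Tbx18 at -0.03 for Kcnj8 against fibroblasts. Tbx18 in the latter was at -0.12 without the filter, -2.84 with 10 cells, -5.38 at 0.5 times the thresholds and -2.54 without mixed cells, and at 0.50 without mixed cells for Myh11 against fibroblasts. With 10 cells Tbx3 was at -0.15 for Myh11 against Kcnj8. For Vtn Acta2 against Kcnj8, Tbx2 was at 0.12 (0.5 times the thresholds), 1.28 (stricter cells) and 0.29 (without mixed cells), and Tbx3 at -0.98 (10 cells), -0.16 (2 times) and -0.55 (without mixed cells). Tbx20 for Vtn Acta2 against Myh11 was at -0.38 at 0.5 times the thresholds.

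With each mouse left out, Myh11 against Kcnj8 ranged from -0.27 to 0.51 (Tbx2), -0.15 to 1.45 (Tbx3) and -3.72 to 3.42 (Tbx18). Tbx18 ranged from -2.87 to 0.64 for Myh11 and -2.84 to 1.5 for Kcnj8 against fibroblasts. Tbx2 ranged from -3.00 to 1.53 for valve-type against Pdgfra Tcf21 and -0.69 to 0.48 for Vtn Acta2 against Myh11. Vtn Acta2 against Kcnj8 ranged from -0.23 to 0.33 (Tbx2), -0.98 to 0.97 (Tbx3) and -2.66 to 3.55 (Tbx18). The Rgs5 split has 2 mice and was not run with 1 left out.

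The mean share of Rgs5-high cells with any Tbx3 count, 67.5% over mice, was 56.04% from 10 CPM and 55.2% after thinning to 50000 counts. Mean Tbx18 in Rgs5-low cells, 39.1 CPM in sums, was 66.2 as a mean of cell CPM.

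Over all genes, in the order Myh11 against Kcnj8, Myh11 against fibroblasts, Kcnj8 against fibroblasts, Rgs5 split, valve-type against Pdgfra Tcf21, Vtn Acta2 against Myh11 and Vtn Acta2 against Kcnj8, calls went from 123 to 1296, 421 to 2428, 229 to 2385, 1 to 878, 33 to 934, 0 to 625 and 3 to 559 with DESeq2, and to 406, 615, 346, 12, 245, 26 and 159 without the filter. Without the block they were 183, 816, 343, 0, 42, 10 and 17. Leaving out each mouse gave 66 to 345, 27 to 457, 167 to 486, 4 to 49, 0 to 22 and 4 to 11 for the 6 comparisons with 3 mice. With 10 cells 345, 486, 49 and 11 were called for Myh11 against Kcnj8, Kcnj8 against fibroblasts, valve-type against Pdgfra Tcf21 and Vtn Acta2 against Kcnj8. Without mixed cells, and so with mice 1 and 2 only, 258, 693 and 364 were called for Myh11 against Kcnj8 and for Myh11 and Kcnj8 against fibroblasts, and 16 for Vtn Acta2 against Kcnj8. At 2 times the thresholds, 59 were called for valve-type against Pdgfra Tcf21, 350 for Kcnj8 against fibroblasts, 0 for the Rgs5 split and 6 for Vtn Acta2 against Kcnj8. At 0.5 times, 1 was called for Vtn Acta2 against Kcnj8. The stricter cell filter gave 269 for Myh11 and 154 for Kcnj8 against fibroblasts and 5 for Vtn Acta2 against Kcnj8.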

Other observations

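Tbx1, a T-box gene outside the members, was positive in 8 of 236 Pecam1 cells without Npr3, from 3 mice, with a median of 166 and a highest value of 425 CPM. These cells were picked out after their values were seen. At least 100 CPM of the lymphatic endothelial genes Prox1, Flt4, Lyve1 and Mmrn1 was found in 6, 8, 6 and 8 of these 8 cells, and in 4, 55, 10 and 5 of the other 228. Tbx3 was positive in none of the 8 and in 45 of the 228.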
